A study of Saccharomyces cerevisiae with 5 samples.

Results

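In strain YAC2, a *Saccharomyces cerevisiae* strain that carries a yeast artificial chromosome (YAC) with *Kluyveromyces lactis* DNA, the host chromosomes split into a low and a raised set by the strength of their nucleosome signal. The low set held 1608 of the 5264 host genes in the table, on 5 of 16 chromosomes (VI, VII, VIII, XI and XV, second letter F, G, H, K or O of the systematic name). The raised set held the other 3656 genes, on 11 chromosomes. The chromosomes were selected on the gene signal measured in YAC2 itself, so the difference in level between the sets is a description and carries no test. The choice did not use the position of nucleosomes within genes. Strains YAC1 (*K. lactis* insert) and YAC6 (*Debaryomyces hansenii* insert) served as the flat reference. They were picked as flat, so their like levels on both sets are a description too. Evenness along the arms is read from the same YAC2 gene signal that sorted the chromosomes.

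The series mapped nucleosomes in 5 such strains, 1 library each, and 3 of them are compared here. YAC2, YAC1 and YAC6 were all grown in medium lacking added tryptophan and uracil and containing 2% dextrose. Spheroplasts made with zymolyase were digested with micrococcal nuclease (MNase), and gel-purified mononucleosomal DNA was sequenced. The labels give no host genotype beyond the YAC and no replicate culture, so no difference below has a replicate check and none is tested. The spreads given are over genes or over chromosomes of a library, and neither is a replicate of a strain.

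MNase cuts the linker between nucleosomes and leaves the DNA that is wrapped on the histone core. Around a yeast gene this gives a nucleosome-depleted region at the promoter, a well-placed first nucleosome just inside the gene (+1), and a regular array behind it that fades with distance. The total signal over a gene also scales with how much of its DNA entered the digest, since every chromosome is cut in the same tube. More copies of a chromosome and more nucleosomal DNA recovered per copy cannot be told apart in these tables.

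The level of a gene is the mean of its bins, which span -500 to +1000 bp around the listed start, divided by the median of all host genes of that library. Genes under 10% of that median in YAC2, YAC1 or YAC6 were left out, which kept 1606 of the 1608 low genes and 3647 of the 3656 raised genes. Depth in reads is not known. In the smallest steps between deposited values, a bin held 316 steps in YAC2, 1672 in YAC1 and 1498 in YAC6 for the median low gene, and 639, 1696 and 1501 steps for the median raised gene. The YAC2 values of the low set therefore rest on the coarsest of these measurements.

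The median gene on the low chromosomes of YAC2 had 0.496 times the level of the median gene on the raised ones, and the same genes had like medians in YAC1 and YAC6. The median level was 0.577 on low and 1.16 on raised chromosomes in YAC2, a log2 difference of -1.01. It was 0.992 on low and 1.01 on raised chromosomes in YAC1, and 0.999 on low and 1.00 on raised chromosomes in YAC6. The log2 difference was -0.021 in YAC1 and -0.0031 in YAC6. Because the library median covers both sets, the levels are relative to each other, and a level above 1 on raised chromosomes does not say by itself that they gained signal.

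Chromosome medians in YAC2 left a gap between the sets. Chromosome XV stood lowest at 0.555, followed by VII at 0.562, XI at 0.577, VIII at 0.640 and VI at 0.660. The lowest raised chromosome was IV at 1.05 and the highest was I at 1.48, and the remaining 9 lay between them. VI, with the highest level of the low set, and IV, with the lowest of the raised set, are the members nearest the divide. In YAC1 the 16 medians ran between 0.942 (IV) and 1.18 (I), and in YAC6 between 0.980 (IV) and 1.04 (VIII), with low and raised chromosomes mixed.

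**Figure D1:**
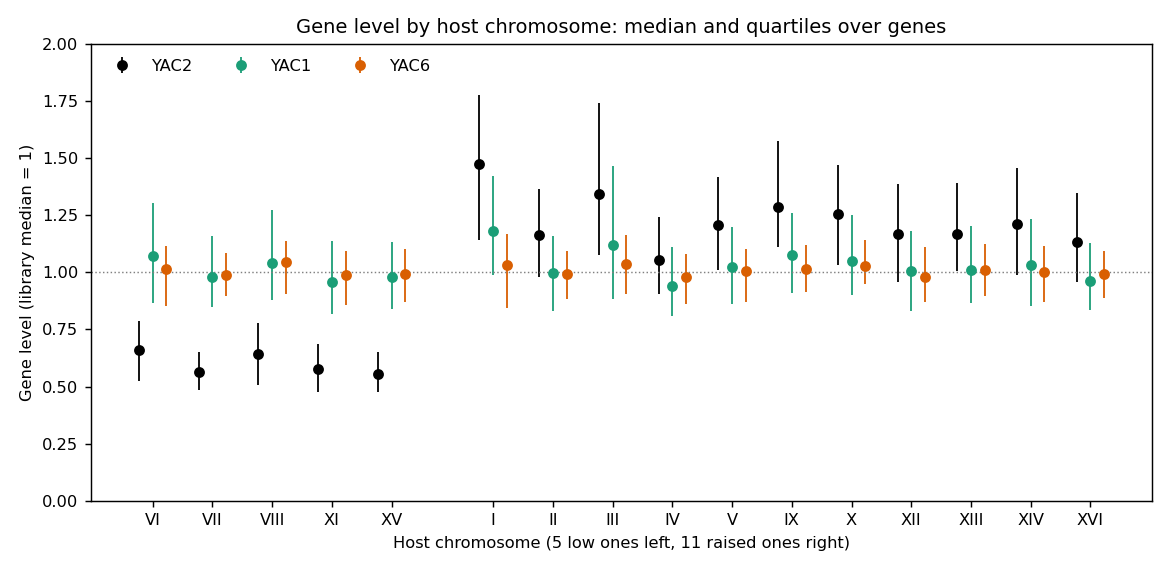
Median gene level (library median set to 1) for each host chromosome in YAC2 (black), YAC1 (green) and YAC6 (orange), with bars from the lower to the upper quartile over genes. The 5 low chromosomes stand left at 0.555 to 0.660 in YAC2, and the 11 raised ones right at 1.05 to 1.48, while YAC1 and YAC6 stay between 0.942 and 1.18 on both sides.

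Dividing each gene's YAC2 level by the geometric mean of its YAC1 and YAC6 levels reduces what is particular to the gene, and this log2 ratio is called the relative level here. Its median was -0.77 ± 0.21 over the 1606 low genes and 0.23 ± 0.20 over the 3647 raised genes (SD over genes), a difference of -0.99. Over chromosomes, the medians averaged -0.75 ± 0.053 in the low set (SD, n = 5 chromosomes) and 0.26 ± 0.073 in the raised set (SD, n = 11 chromosomes). The gap between the sets was more than 10 times the spread of chromosomes within either. Sorting the chromosomes on this signal makes such a gap likely, so it is a description. For YAC1 over YAC6 the median was -0.010 over the low genes and nearer 0 over the raised genes.

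Nearly every gene followed its chromosome. Of the low genes, 1575 (98.1%) had a lower level in YAC2 than in both YAC1 and YAC6, and of the raised genes 2851 (78.2%) had a higher level than in both. Only 24 low genes (1.49%) lay above the midpoint between the set medians, and 8 raised genes (0.219%) lay below it. More than 1.5-fold below the reference were 1318 low genes (82.1%) and no raised gene, against 25.1% of all genes. More than 1.5-fold above it were no low gene and 178 raised genes (4.88%), against 3.39% of all genes. Nothing is read from these shares, since the sets were chosen on this contrast.

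**Figure D2:**
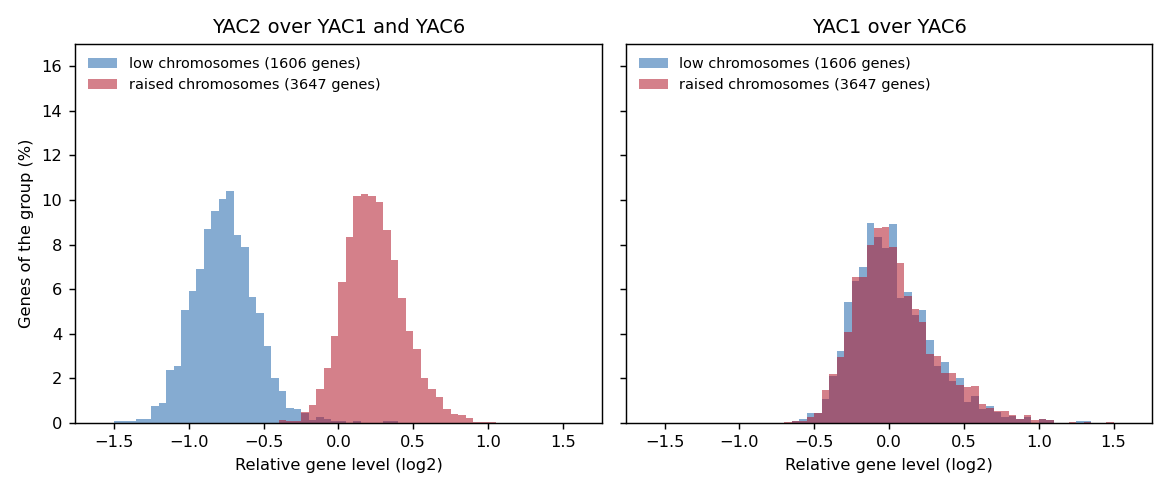
Distribution of relative gene level (log2) as the percentage of genes of each set, for 1606 genes on low chromosomes (blue) and 3647 on raised chromosomes (red). In YAC2 over YAC1 and YAC6 the sets form separate peaks with medians of -0.77 and 0.23, and in YAC1 over YAC6 they lie on top of each other.

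Within each set the chromosomes with few genes lay higher. In the low set VI, with the fewest genes (110), had the highest relative level at -0.68, VIII (249 genes) followed at -0.73, XI (283 genes) at -0.74 and VII (473 genes) at -0.79, and XV (491 genes) was lowest at -0.81. In the raised set I (77 genes) had 0.40, III 0.33 and IX (187 genes) 0.33, while IV, with the most genes (689), had 0.14. In YAC1 over YAC6, a comparison that shares its libraries with this one, the medians were 0.085 for VI, 0.16 for I, 0.10 for III and 0.11 for IX, against -0.058 for IV and -0.031 for XV. These differences between chromosomes of a set were smaller than the gap between the sets.

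The low and the raised level ran along whole chromosomes. Genes were ordered along each arm by the number in their systematic name and grouped into blocks of 20, which gave 80 blocks on low chromosomes and 185 on raised ones. Block medians of the relative level ranged from -0.94 to -0.51 on low chromosomes and from 0.036 to 0.57 on raised ones, so no block of either set reached the other. Around their own chromosome's median the low blocks deviated by -0.15 to 0.19 (SD 0.064) and the raised blocks by -0.19 to 0.20 (SD 0.069). Blocks of YAC1 over YAC6 deviated by -0.18 to 0.35 on low and by -0.22 to 0.36 on raised chromosomes, with SDs of 0.088 and 0.092.

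The blocks with the largest deviations lay apart from each other, but smaller deviations also ran over neighbouring blocks. On low chromosomes the highest above its chromosome was the second block of the right arm of XI, from RQT4 to FMP46, at -0.54, a deviation of 0.19. Next came the second block of the right arm of VI, from ATG18 to IRC5, at -0.51, a deviation of 0.16. In YAC1 over YAC6 these blocks deviated by 0.21 and 0.35, and the 2 comparisons share libraries. The lowest were the end of the right arm of VII, from CAB4 to MAL11, and a block on the right arm of XV that starts at HIS3, both at -0.94. On raised chromosomes the extremes were the block from SEC6 to UTP25 on the left arm of IX, at 0.14, and that from YME1 to THP3 on the right arm of XVI, at 0.38. Neighbouring blocks on the right arm of raised chromosome XII, starting at CSC1, RPS28B and MEC3, deviated by -0.12, -0.14 and -0.12.

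Levels differed little by arm or by distance from the centromere. The left arm minus the right arm gave 0.017 to 0.059 on the 5 low chromosomes and -0.095 to 0.052 on the 11 raised ones, while YAC1 over YAC6 gave -0.14 to 0.16 and -0.13 to 0.24. With each arm split into an inner, a middle and an outer part of equal gene number, the median departure from the chromosome was 0.00021, 0.0024 and -0.00081 on low chromosomes. It was -0.0055, -0.0072 and 0.016 on raised ones. The SD over genes of each part was between 0.18 and 0.21.

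**Figure D3:**
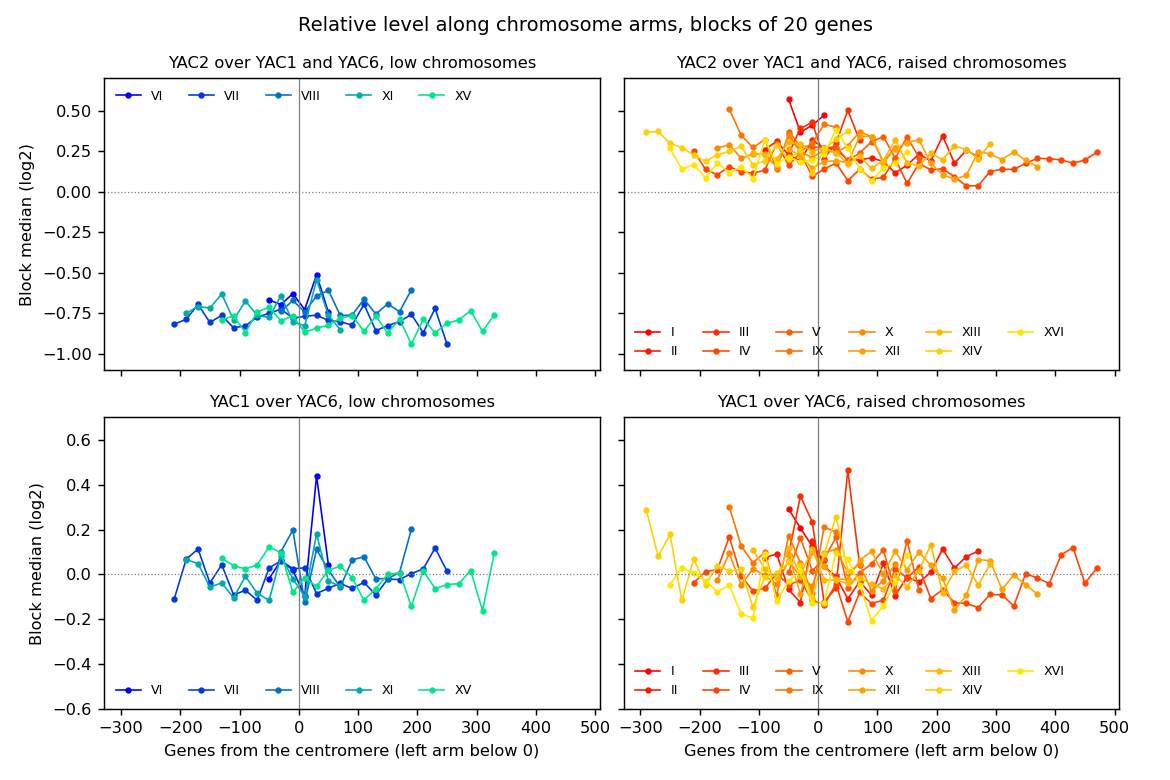
Block medians of relative level (log2) against the number of genes from the centromere, left arm below 0, 1 line per chromosome. In the upper panels (YAC2 over YAC1 and YAC6) the low chromosomes run between -0.94 and -0.51 and the raised ones between 0.036 and 0.57, and in the lower panels (YAC1 over YAC6) both sets run around 0.

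Genes of the same complex or pathway were separated by the chromosome that carries them. The genes of 9 lists that were found in the tables and passed the filter comprised 37 low and 51 raised genes. All 37 low genes lay below the midpoint between the sets, with a median of -0.79, and all 51 raised genes lay above it, with a median of 0.32. The lists were drawn up with results of these data known, and they follow the sets because nearly all genes do.

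Histone genes, which code for the nucleosome core and its variants, gave 2 low and 9 raised members. CSE4, the centromeric histone H3 variant, had a level of 0.501 in YAC2, against 0.960 in YAC1 and 1.03 in YAC6. HTZ1, the H2A.Z gene, had 0.478 in YAC2, against 0.784 in YAC1 and 0.782 in YAC6. The 4 core histone gene pairs and the linker histone gene HHO1 sit on raised chromosomes and were above both reference libraries, at relative levels between 0.16 (HTB1) and 0.68 (HHF2). Of all raised genes, 78.2% were likewise above both. Core histone genes come as near-identical copies, and how the authors placed reads that match several places is not given in the sources used here, so the split between copies is uncertain.

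Among tubulin and spindle genes the partners of a complex were separated. TUB2, the beta-tubulin gene on VI, had 0.794 in YAC2, against 1.31 in YAC1 and 1.01 in YAC6. TUB1, the main alpha-tubulin gene on XIII, had 1.36 in YAC2, against 1.30 in YAC1 and 1.24 in YAC6. The level of TUB2 relative to TUB1 was therefore 0.585 in YAC2, against 1.01 in YAC1 and 0.819 in YAC6. The gamma-tubulin complex was split in the same way. SPC97, a subunit on VIII, had 0.413 times the level of its partner SPC98 on XIV in YAC2, against 1.01 times in YAC1 and 1.18 times in YAC6. NUF2 of the kinetochore, on XV, had 0.728 times the level of its complex partner NDC80 in YAC2, against 1.33 times in YAC1 and 1.29 times in YAC6.

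The 14 genes of the proteasome core particle fell evenly, 7 on low and 7 on raised chromosomes. The low ones ran from -0.98 (PUP2, an alpha subunit) to -0.58 (PRE4, a beta subunit) in relative level. The raised ones ran from 0.24 (PRE3, a catalytic beta subunit) to 0.46 (PRE2, another catalytic subunit). All 7 low genes were below, and all 7 raised genes above, both reference libraries. Of all low genes 98.1% were below both, and of all raised genes 78.2% were above both. PUP2 had a level of 0.502 in YAC2, against 0.987 in YAC1 and 0.991 in YAC6.

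RNA polymerase II, which transcribes messenger RNA, also divided 6 to 6, but with less separation. RPB2, the second largest subunit, had 0.370 in YAC2, against 0.745 in YAC1 and 0.90 in YAC6, a relative level of -1.15. RPO21, the largest subunit, on raised chromosome IV, had 0.723 in YAC2, against 0.733 in YAC1 and 0.905 in YAC6, a relative level of -0.17. RPO26 (-0.14) and RPB4 (-0.01) on raised chromosomes also stood below 0, and 3 of the 6 raised genes were below both reference libraries. Another 2 of the 6 were above both, against 78.2% of all raised genes. The level of RPB2 relative to RPO21 was 0.512 in YAC2, against 1.02 in YAC1 and 0.994 in YAC6. The low gene was thus lower than its partner by about the gap between the sets, at a lower level of both.

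Glycolytic genes gave 6 low and 6 raised members. PFK1, a subunit of phosphofructokinase on VII, had 0.309 in YAC2, against 0.597 in YAC1 and 0.694 in YAC6, and 0.345 times the level of the other subunit, PFK2 on XIII. That ratio was 0.659 in YAC1 and 0.944 in YAC6. TDH3, which codes for the main glyceraldehyde-3-phosphate dehydrogenase, had 0.408 in YAC2, against 0.548 in YAC1 and 0.442 in YAC6. Its relative level of -0.27 was the highest among listed low genes, and TDH1 and TDH2 are close copies of it on raised chromosome X. GLK1, the glucokinase gene on III, had 1.95 in YAC2, against 1.41 in YAC1 and 0.775 in YAC6, and its relative level of 0.90 was the highest among all listed genes. The reference libraries themselves disagree on GLK1.

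The 3 low genes and 5 raised genes that assemble or move nucleosomes split likewise. SPT16, a subunit of the histone chaperone FACT on VII, had 0.391 times the level of its partner POB3 on XIII in YAC2, against 0.881 times in YAC1 and 0.772 times in YAC6. SPT6, a histone chaperone of transcription elongation, had 0.565 in YAC2, against 0.967 in YAC1 and 1.03 in YAC6. NAP1, a chaperone of H2A and H2B on XI, had 1.00 in YAC2, against 1.8 in YAC1 and 1.08 in YAC6. A level near 1 in YAC2 on a low chromosome went with a gene that was high in YAC1.

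Of the markers, TRP1 and URA3, which YAC vectors commonly carry for selection, sit on raised chromosomes IV and V. TRP1 had a level of 1.85 in YAC2, against 1.53 in YAC1 and 1.69 in YAC6. URA3 had 2.03 in YAC2, against 1.52 in YAC1 and 1.82 in YAC6. Both departed little from their chromosomes, by 0.055 and 0.019. A copy on the YAC would share reads with the host gene. HIS3 on XV had 0.569 in YAC2, against 1.22 in YAC1 and 0.809 in YAC6, and ADE2 on XV had 0.425 in YAC2, against 0.675 in YAC1 and 0.861 in YAC6.

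Of the remaining lists, ACT1 (actin), PMA1 (the plasma membrane proton pump) and CDC14 (a mitotic exit phosphatase) were on low chromosomes at relative levels between -0.92 and -0.49. CDC28, CLN3 and SIC1, which drive or restrain the cell cycle, were on raised ones at 0.35 to 0.36. Of the 12 symbols listed for families with near copies, 4 were found and passed the filter. They were HXT1, HXT4 and HXT5, hexose transporter genes on VIII, at -0.82 to -0.56, and ENA1, a sodium pump gene on IV, at 0.29. CUP1-1 and CUP1-2 of this list fell under the filter. No member of these 2 lists that passed it crossed to the other set.

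**Figure D4:**
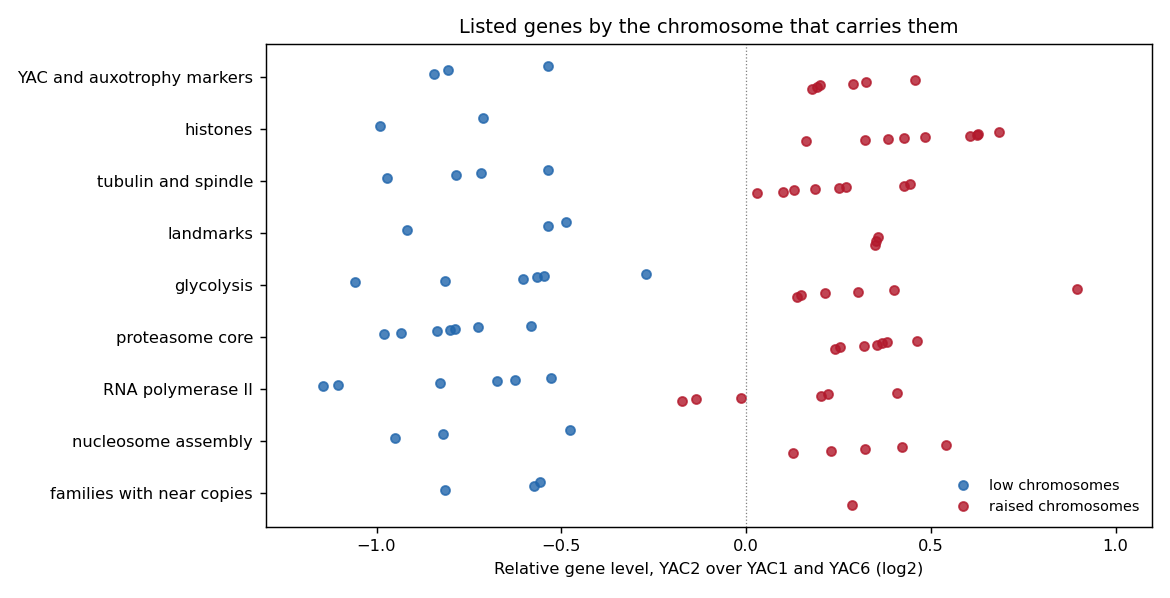
Relative level (log2, YAC2 over YAC1 and YAC6) of the listed genes, 1 point per gene, low chromosomes in blue and raised chromosomes in red, by list. All blue points lie below the midpoint of -0.27 and all red points above it, with TDH3 the highest blue point at -0.27 and RPO21 the lowest red point at -0.17.

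Genes that departed from their chromosome were few and single. A departure is a relative level more than 1.5-fold (0.585 on the log2 scale) above or below the median of the gene's own chromosome. On low chromosomes 14 genes departed upwards (0.872%) and on raised ones 15 (0.411%), against 0.552% of all genes. Downwards it was 2 low genes (0.125%) and 4 raised genes (0.110%), against 0.114% of all genes. The same count for YAC1 over YAC6 gave 62 low and 158 raised genes upwards (3.86% and 4.33%, against 4.19% of all genes) and 1 and 8 downwards (0.0623% and 0.219%, against 0.171% of all genes). The count for YAC2 is against the mean of 2 libraries and that for YAC1 against 1, so their sizes are not compared.

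These counts depend on the reference: with YAC6 alone, 78 low and 199 raised genes departed, and with YAC1 alone 5 and 2. With the gene mean taken from 0 to +500 bp they were 71 and 89. Over genes, the departure in YAC2 had a Pearson correlation with that in YAC1 over YAC6 of 0.62 on low and 0.71 on raised chromosomes. The 2 measures share libraries. There was no run of 4 or more neighbours that departed together. The 2 runs found had 2 genes each, QCR6 with PHO4 on low chromosome VI and TIM23 with RCF2 on raised chromosome XIV.

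The low-chromosome genes with the greatest upward departure reached the level of the reference libraries. PUT4, the high-affinity proline permease gene on XV, had 0.739 in YAC2, against 0.760 in YAC1 and 0.442 in YAC6, and departed by 1.16. PYC1, a pyruvate carboxylase gene on VII, had 0.669 in YAC2, against 0.791 in YAC1 and 0.576 in YAC6, and departed by 0.78. QCR6, a subunit of mitochondrial complex III on VI, had 0.603 in YAC2, against 0.801 in YAC1 and 0.449 in YAC6, and departed by 0.68. In each of these 3 the YAC2 value lay between YAC1 and YAC6, and their departures in YAC1 over YAC6 were 0.81, 0.47 and 0.75.

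The other top departures came from partly empty tables. YHR213W-A on VIII had 0.463 in YAC2, against 0.391 in YAC1 and 0.322 in YAC6, and 68 of its bins were at 0 in YAC2. FEX1, a fluoride exporter gene near the end of XV with a near-identical copy on XVI, had 0.434 in YAC2, against 0.467 in YAC1 and 0.335 in YAC6, with 76 bins at 0. Reads in such genes may be shared with copies on other chromosomes, so their values are uncertain.

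Downward departures on low chromosomes were weaker. CRM1, the main nuclear export receptor on VII, had 0.208 in YAC2, against 0.469 in YAC1 and 0.703 in YAC6, and departed by -0.68. DBP3, an RNA helicase of ribosome assembly on VII, had 0.309 in YAC2, against 0.780 in YAC1 and 0.851 in YAC6, and departed by -0.61. MES1 (methionyl-tRNA synthetase), NOP12 (pre-rRNA processing) and SKI7 (exosome-mediated mRNA decay) followed at -0.58 to -0.51, short of the threshold. All 5 were below both reference libraries by a wide margin, and 98.1% of all low genes were below both.

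On raised chromosomes PRM7 on IV had 0.801 in YAC2, against 0.447 in YAC1 and 0.427 in YAC6, and departed by 0.73. HTC1 on XVI had 1.17 in YAC2, against 0.717 in YAC1 and 0.572 in YAC6, and departed by 0.69. RRN5, a subunit of the RNA polymerase I upstream activation factor on XII, had 1.79 in YAC2, against 1.4 in YAC1 and 0.658 in YAC6, and departed by 0.68. PRM7 thus stood out from 2 reference libraries that lay close together, while for RRN5 the references were far apart. HTC1 was above both references, but these differed too, with a departure of 0.37 in YAC1 over YAC6. SPO24, a sporulation gene, and GID8, a subunit of the ubiquitin ligase that removes gluconeogenic enzymes, departed by 0.64 and 0.63.

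Downward departures on raised chromosomes were of like size to those on low ones. YNL033W on XIV had 0.293 in YAC2, against 0.368 in YAC1 and 0.403 in YAC6, and 50 of its bins were at 0. PHO87, a phosphate transporter gene on III, had 0.789 in YAC2, against 0.818 in YAC1 and 1.1 in YAC6, and departed by -0.60. FMP27 (XII) and TRM732 (XIII) each departed by -0.59, and MEI4, which is needed for meiotic DNA breaks, by -0.52. Apart from YNL033W these genes had nearly the same level in YAC2 and YAC1, with YAC6 above both.

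The 11 genes under the filter include some with a large difference between strains. TAR1 and YLR154C-G lie in the ribosomal DNA array of chromosome XII, a stretch of tandem repeats. TAR1 had a level of 0.0194 in YAC2, against 0.410 in YAC1 and 1.09 in YAC6. YLR154C-G had 0.0600 in YAC2, against 0.859 in YAC1 and 1.43 in YAC6. Both were thus far below the reference strains on a raised chromosome. On low chromosome VIII the tandem metallothionein genes were left out too, CUP1-1 at 0.0790 in YAC2, against 0.104 in YAC1 and 0.213 in YAC6, and CUP1-2 at 0 in YAC2, against 0.0396 in YAC1 and 0.126 in YAC6. In repeats the level depends on how reads with several matches were placed. The other 7 genes left out sit on raised chromosomes I, III, X and XIII, with levels of 0 to 0.214 in YAC2.

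Within genes, the nucleosome pattern of YAC2 had the same layout on low and raised chromosomes. Chromosomes II and X, whose listed starts lie off the pattern, were left out of the mean profiles and the promoter measures, which left 1606 low and 2965 raised genes. In mean profiles with every gene scaled to its own mean, the +1 nucleosome peaked at 80.2 bp on low and 81 bp on raised chromosomes in YAC2. The low minus raised difference was -0.857 bp in YAC2, against -0.805 bp in YAC1 and -0.740 bp in YAC6. Spacing between nucleosomes was 164.1 bp on low and 163.7 bp on raised chromosomes in YAC2, a difference of 0.422 bp, against 0.0174 bp in YAC1 and -0.0145 bp in YAC6. From the mean of YAC1 and YAC6, spacing in YAC2 changed by 0.60 bp on VI, 0.56 bp on VII, 0.43 bp on XV and 0.34 bp on XI. On VIII it changed by -0.35 bp. The 9 raised chromosomes ran from -0.46 bp (I) to 0.26 bp (XIV), with an SD of 0.244 bp. VI, VII, XV and XI thus lay above all 9 raised chromosomes and VIII within them, which was not tested. On the same chromosome sets, low minus raised spacing was -0.235 bp in YAC3 and -0.128 bp in YAC7. All these shifts are far below the bin width of 10 bp.

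**Figure D5:**
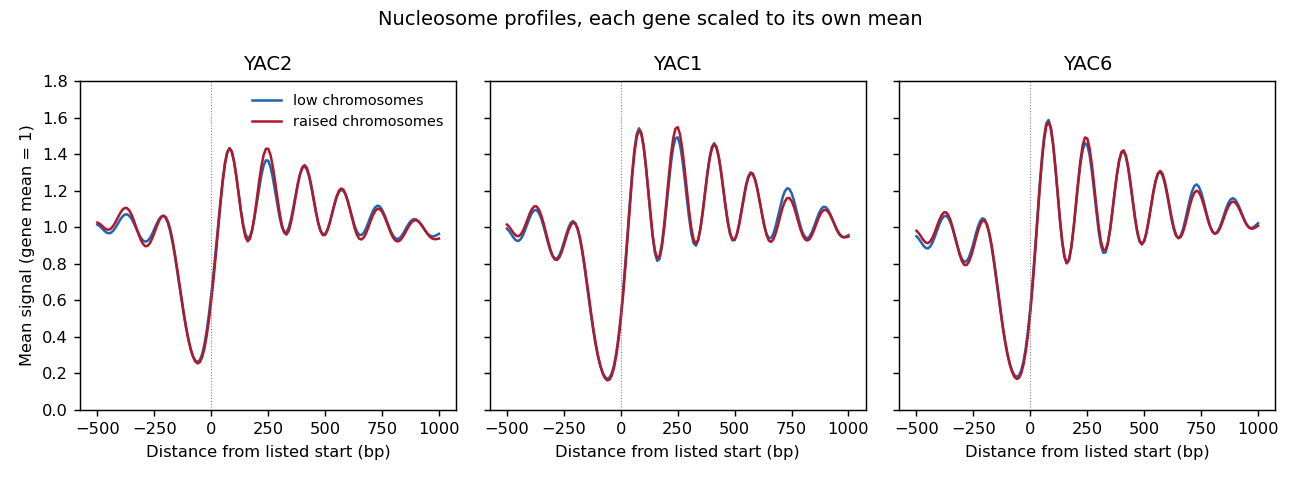
Mean nucleosome profiles from -500 to +1000 bp of the listed start, each gene scaled to its mean, for 1606 genes on low chromosomes (blue) and 2965 on raised chromosomes (red) in YAC2, YAC1 and YAC6. The curves follow each other closely, and in YAC2 the second peak inside the gene reaches 1.37 on low and 1.43 on raised chromosomes.

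Peaks stood out less on low chromosomes in YAC2. Amplitude says how far a peak rises over the trough behind it, in log2 units and as the mean of peaks 1 to 3. It was 0.52 on low and 0.57 on raised chromosomes in YAC2. In YAC1 it was 0.77 on low and 0.76 on raised chromosomes, and in YAC6 0.80 on both. YAC2 was thus lower than both reference strains in both sets, and the difference between the sets, relative to YAC1 and YAC6, was -0.045. The second nucleosome differed most between the sets in YAC2, with a peak over trough of 0.49 on low and 0.58 on raised chromosomes. In YAC1 it was 0.73 on low and 0.77 on raised chromosomes, and in YAC6 0.76 on low and 0.77 on raised chromosomes.

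Chromosome by chromosome the change of amplitude from the reference overlapped between the sets. It was -0.31 on XI, -0.30 on VIII, -0.25 on VII, -0.24 on XV and -0.18 on VI, against -0.24 (I) to -0.20 (V) on the 9 raised chromosomes. XI, VIII and VII lay below all 9 raised chromosomes, XV within them and VI above them. Without any single low chromosome the set difference stayed between -0.053 and -0.034, and among genes with a YAC2 level between 0.6 and 0.9 it was -0.090. That range picks low genes that are high in YAC1 and raised genes that are low there, so it does not compare like genes. The low set also had fewer steps per bin, and the part of depth in this was not tested.

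Promoter depletion did not separate the sets at the median. The promoter ratio sets the signal upstream of the start (-120 to -20 bp) against that of the early gene (+100 to +500 bp) on the log2 scale, with a pseudocount of 0.1 times the gene's mean in both, so lower means deeper depletion. Its median was -1.82 on low and -1.85 on raised chromosomes in YAC2, -2.37 on both in YAC1, and -2.39 on low and -2.42 on raised chromosomes in YAC6. YAC2 promoters were thus shallower than those of YAC1 and YAC6 by a median of 0.43 on low and 0.43 on raised chromosomes, with SDs over genes of 0.55 and 0.47. This was not particular to YAC2. On the same chromosome sets, strain YAC3 of the series had -1.85 on low and -1.83 on raised chromosomes, and YAC7 had -1.95 and -1.99. The difference between the sets, YAC2 minus the mean of YAC1 and YAC6, was 0.027, within the SD of 0.045 over raised chromosomes (n = 9). The mean over genes in place of the median gave -0.014, so the sign is not settled. Genes at YAC2 levels of 0.6 to 0.9 gave -0.083, but this match does not compare like genes. Among them YAC2 had -1.80 on low and -1.89 on raised chromosomes, YAC1 -2.33 and -2.42, and YAC6 -2.30 and -2.57. The matched value therefore does not decide the sign.

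The spread over genes was wider on low chromosomes. A promoter ratio more than 1 above the mean of YAC1 and YAC6 was found for 221 low genes (13.8%) and 294 raised genes (9.92%), against 11.3% of all genes. More than 1 below it were 15 low genes (0.934%) and 4 raised genes (0.135%), against 0.416% of all genes. Low genes thus had a larger share in both directions. They also had fewer steps per bin, and the part of depth in this was not tested.

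The largest promoter changes, YAC2 minus the mean of YAC1 and YAC6, were 2.32 to 2.67 in the low and 2.53 to 2.79 in the raised set. On low chromosomes RPL42B, a gene of the large ribosomal subunit on VIII, had a promoter ratio of 0.62 in YAC2, against -1.04 in YAC1 and -3.06 in YAC6. HSP12, a stress-induced membrane protein gene on VI, had 0.38 in YAC2, against -1.16 in YAC1 and -3.05 in YAC6. RPL24B, another large-subunit gene on VII, had -0.11 in YAC2, against -2.0 in YAC1 and -2.86 in YAC6. In all 3 the promoter was depleted in both references, more in YAC6 than in YAC1, and about as full as the gene, or fuller, in YAC2.

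On raised chromosomes RPL34A, a large-subunit gene on V, had 0.39 in YAC2, against -1.55 in YAC1 and -3.24 in YAC6. RPL2B, likewise on IX, had 0.41 in YAC2, against -1.26 in YAC1 and -2.98 in YAC6. MPH2, a maltose permease family gene near the end of IV, had 1.75 in YAC2, against -0.94 in YAC1 and -1.06 in YAC6, but most of its bins were at 0 in YAC2. Of these 6 genes, 4 code for ribosomal proteins, which have close copies elsewhere in the genome. They were picked by the size of their change, and ribosomal protein genes as a class were not counted here.

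Promoter ratios lower in YAC2 than the mean of YAC1 and YAC6 by more than 1 were rarer. On low chromosomes SHR5, a subunit of a palmitoyltransferase, had -2.35 in YAC2, against -1.53 in YAC1 and 0.04 in YAC6. PUT4 had -0.05 in YAC2, against -0.16 in YAC1 and 2.64 in YAC6, and YHR086W-A had -1.02 in YAC2, against 0.07 in YAC1 and 0.39 in YAC6. On raised chromosomes FMP45 had -1.64 in YAC2, against -0.68 in YAC1 and 0.19 in YAC6. PRM7 had 0.73 in YAC2, against 2.04 in YAC1 and 1.94 in YAC6, and HVG1 had -0.54 in YAC2, against 0.42 in YAC1 and 0.99 in YAC6. PUT4 lay below YAC6 only and slightly above YAC1, while the other 5 lay below both references. For SHR5, PUT4 and FMP45 the reference libraries differed from each other by more than 0.8.

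The pattern of single genes was less alike between YAC2 and the references on low chromosomes than on raised ones. The Pearson correlation over the bins of a gene between YAC2 and YAC1 had a median of 0.834 on low and 0.922 on raised chromosomes. Between YAC2 and YAC6 it was 0.740 on low and 0.815 on raised chromosomes. Between YAC1 and YAC6 it was 0.890 in both sets. Chromosomes II and X were kept in these correlations, which cover 1606 low and 3647 raised genes. Bins of a gene are not independent, and these values are a description.

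This difference ran along chromosomes without overlap. Chromosome medians of the YAC2 with YAC1 correlation were 0.826 (XI) to 0.851 (VI) in the low set and 0.917 (IX) to 0.937 (I) in the raised set. For YAC2 with YAC6 they were 0.735 to 0.750 in the low and 0.80 to 0.831 in the raised set, and for YAC1 with YAC6 0.872 to 0.895 in the low and 0.867 to 0.897 in the raised set. The low set has fewer steps per bin in YAC2, and the part of depth in the whole difference was not tested. Among genes with a YAC2 level between 0.6 and 0.9, 627 low and 553 raised, the medians were 0.835 on low and 0.911 on raised chromosomes for YAC2 with YAC1, and 0.734 on low and 0.825 on raised chromosomes for YAC2 with YAC6. These low genes had 378 steps per bin in YAC2 and these raised genes 443. The match picks low genes that are high in YAC1 (median level 1.17) and raised genes that are low there (0.706), and YAC1 with YAC6 then gave 0.877 for the low and 0.906 for the raised genes, so the match is not one of like genes.

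Genes were ranked by the mean of their correlations with YAC1 and with YAC6, so a gene at an end of this ranking need not be at the end of either. The lowest and highest single values with YAC1 were 0.202 and 0.964 in the low set and 0.608 and 0.989 in the raised set. RPL42B had correlations of 0.488 with YAC1 and 0.0316 with YAC6, where YAC1 with YAC6 gave 0.80. HAP4, the activator subunit of the regulator of respiratory genes on XI, had 0.540 with YAC1 and 0.161 with YAC6, where YAC1 with YAC6 gave 0.794. FEX1 and PMA1 were highest among low genes, FEX1 at 0.964 with both and PMA1 at 0.962 with YAC1 and 0.910 with YAC6. In the raised set the lowest were YJL027C on X, at 0.762 with YAC1 and 0.137 with YAC6, and RPS6A, a small-subunit ribosomal protein gene on XVI, at 0.703 with YAC1 and 0.199 with YAC6. The highest were MPH2, at 0.982 with YAC1 and 0.971 with YAC6, and MST28, a vesicle protein gene on I, at 0.965 with YAC1 and 0.978 with YAC6. FEX1, MPH2 and MST28 have bins at 0 in YAC2, and PMA1 has none.

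The artificial chromosome of YAC2 lay between the sets. Its 37 *K. lactis* genes had a median level of 0.812 in units of the host median (quartiles 0.660 and 0.932), which is 1.41 times the low median and 0.698 times the raised median. Of the 37 genes, 1 was below the low median and 1 above the raised median. In YAC6 the 52 *D. hansenii* genes had a median of 1.03, beside host medians of 0.999 and 1.00. The host and insert tables of each strain share 1 step unit, which allows this comparison, but the inserts come from other genomes with other sequence composition.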

How the data were processed

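The deposited values are signal in bins of 10 bp around each listed start, per the file headers, scaled by the authors in a way that is not given in the sources used here. CASAVA 1.7.0 was used, per the submitters' processing notes; aligner, genome build and source of the start sites are not given there. All host values were whole multiples of 1 step per library (tolerance 0.02). The letter after the hyphen was put back in 214 names, and 5261 of 5264 identifiers had an entry in the gene table of assembly R64, which served for symbols. A further table in the YAC2 insert file was not used.

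From these, levels, relative levels, departures, promoter ratios, profiles (Gaussian, SD 20 bp) and correlations were computed in Python 3.11.15 with numpy 2.4.6, pandas 2.3.3 and scipy 1.17.1, and checked on simulated tables. The +1 peak was sought from 0 to 150 bp and further peaks 120 to 230 bp on. A line through up to 4 peaks gave the spacing. Named genes are all listed genes, the 5 highest and 5 lowest departures, 3 promoter changes per direction and 2 correlations at each end, per set. Members, lists and rules were chosen with earlier results of these data known.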

Additional observations from a re-analysis of the deposited data

How the results depend on the processing

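With 1 library per strain there is no test, and a value counts as unmoved when it shifts by less than the SD over raised chromosomes, blocks or, for the insert, genes. Of 53 alternatives, 36 were counted as unmoved, 16 as moved and 1 as turning its sign by more than the spread. The numbers of departing genes have no such SD, so their part of this tally does not rest on this measure. The promoter difference of 0.027 also turned sign within the spread, to -0.0076 with a pseudocount of 0.5 and -0.014 with the mean over genes. The level and relative level differences moved under none of theirs. Genes departing 1.5-fold numbered 16 on low and 19 on raised chromosomes, against 2 and 0 at 2-fold, 71 and 89 with the mean over 0 to +500 bp, 78 and 199 without YAC1, 5 and 2 without YAC6, and 5 and 2 after a line on the YAC1 over YAC6 departure. The largest block deviation was 0.0765 with 40 genes (low) and 0.276 with 10 genes (raised). The pattern correlation difference of -0.0821 became -0.0627 after smoothing and -0.0554 at matched levels. The amplitude difference became -0.060 with an SD of 10 bp and -0.090 at matched levels, and the promoter difference -0.083 at matched levels. The cause was not tested. Matched levels, the line and leaving out chromosomes were chosen after seeing the data. Matched levels do not compare like genes. No paired analysis was possible because each strain has 1 library.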

Other observations

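The chromosomes that are low in YAC2 had a median gene level of 0.70 in YAC3, against 1.21 on the others, a log2 difference of -0.79, and in YAC7 the log2 difference was -0.043. YAC3 shares 4 of the 5 low chromosomes with YAC2. In YAC3, chromosome medians of the level were 0.664 (XI) to 1.62 (VI) over the 5 chromosomes that are low in YAC2, and 0.631 (IV) to 1.75 (I) over the 11 others. Chromosomes VII, VIII, XI and XV, at 0.664 to 0.777, were thus low in YAC3 as in YAC2, VI was among the highest, and IV, IX and X (0.631, 0.810 and 0.752) were low in YAC3 and not in YAC2. In YAC7 the levels were 0.954 (XI) to 1.08 (VI) over the chromosomes low in YAC2 and 0.917 (IV) to 2.39 (I) over the others.

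Amplitude in YAC3 minus the mean of YAC1 and YAC6 was -0.28 on XI, -0.25 on VIII, -0.22 on VII, -0.21 on XV and -0.18 on VI. On the other chromosomes without II and X it was -0.25 (IV) to -0.12 (IX). XI, VIII and IV, which are low in YAC3, had the lowest values, while IX, also low there, had the highest. In YAC7 the change was -0.10 to -0.079 on all 14 chromosomes.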
